A study of Mus musculus with 8 samples.

Results

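Collagens are the structural proteins of the extracellular matrix, and this account follows the mRNA of the collagen genes in 2 leg muscles of mice with 1 working copy of Eif6. A gene was counted as a collagen when its symbol consists of Col, a number, the letter a and a number, with symbols taken from the RefSeq accession of each array probe. This gave 43 collagen genes of 20660 genes with a probe. Col12a1 is the only one of the 44 collagen symbols in the reference table without a probe.

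The study compared gastrocnemius and tibialis anterior (TA) muscle of Eif6+/- mice with that of wild type (WT) mice on 2-colour oligonucleotide arrays. Both genotypes were male littermates on a C57BL6 background, aged 8 to 16 weeks, and each array paired an Eif6+/- mouse with an age-matched WT mouse drawn at random. There were 4 arrays for each muscle, so 4 Eif6+/- and 4 WT samples in each. The paper describes a trimming step at dissection that took away connective tissue and fat, which bears on any collagen level. Eif6+/- RNA carried the dye Cy5 and WT RNA the dye Cy3 on all 8 arrays, so an effect of the dye and an effect of the genotype cannot be told apart within a muscle. The 8 arrays share 1 slide, where each muscle filled a row of its own, so position on the slide and muscle cannot be told apart. Between 43.6% and 48.6% of probes in the Cy5 channels and between 38.7% and 46% in the Cy3 channels stood well above background, and precision is limited by having 4 arrays a muscle.

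Every value called a ratio below is a log2 ratio of Eif6+/- over WT within an array, so that −1 means 2 times less signal in the Eif6+/- muscle. A gene was called lower or higher where its mean ratio over the 4 arrays of a muscle differed from 0 in limma. The threshold was a Benjamini-Hochberg adjusted p under 0.1. The adjustment was taken over all probes kept in that muscle, 23802 in gastrocnemius and 23391 in TA. Each gene was then read by its probe of highest mean signal.

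Collagens are assembled from alpha chains that wind into a triple helix, and each gene encodes an alpha chain. Fibrillar collagens (types I, III and V) give muscle connective tissue its tensile strength, beaded filaments of type VI link the cell surface to that matrix, and type IV forms the network of the basement membrane around muscle fibres and capillaries. Most fibrillar and type VI mRNA in muscle comes from fibroblasts, while endothelial and mural cells of vessels also make type IV. In bulk muscle, fewer cells of a type and less RNA per cell cannot be told apart.

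Eif6 encodes a translation initiation factor that binds the large ribosomal subunit, and its own mRNA checks the genotype labels. The Eif6 ratio was −0.97, −1.15, −0.89 and −1.06 on gastrocnemius pairs 1 to 4. In TA it was −1.22, −1.03, −0.95 and −0.80. Eif6 was thus lower in the Eif6+/- mouse on all 8 arrays, with no array apart from the rest. The mean was −1.02 (SD 0.11, n = 4, adjusted p = 0.0241 in limma) in gastrocnemius and −0.999 (SD 0.17, n = 4, adjusted p = 0.0109) in TA, and a second Eif6 probe gave −1.13 and −1.12. Where these probes lie relative to the deleted part of the gene is not known. All 15 muscle markers on the list, from Acta1 and Ckm to the myosin genes, passed the filter on dim probes in both muscles.

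Of the 43 collagen genes, 31 were measurable in gastrocnemius and 28 in TA. Col2a1, Col11a1 and Col11a2 were measurable in gastrocnemius only. The 12 genes that passed in neither muscle were Col4a3, Col6a4, Col6a5, Col6a6, Col9a3, Col10a1, Col13a1, Col17a1, Col19a1, Col25a1, Col27a1 and Col28a1, several of them known from cartilage, skin or kidney. Among those tested, the WT signal was well above background on every array of its muscle except for Col24a1 (2 of 4 arrays in each muscle) and Col8a2 (3 of 4 arrays in TA).

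In gastrocnemius, 6 of 31 collagen genes were lower in Eif6+/- mice, beside 5.53% of all 12609 genes tested, and 2 were higher, beside 9.85% of all genes. The 6 lower genes make up the whole measured set of type VI chains (Col6a1, Col6a2 and Col6a3), the type IV pair Col4a1 and Col4a2, and the fibrillar chain Col5a3. The higher genes were Col22a1 and Col26a1. The median ratio of the 31 collagens was −0.13, against 0.02 for all genes, and 23 of them had a mean below 0, as did 46.1% of all genes. On all 4 arrays, 7 collagens were below 0 and 3 were above 0, beside 13.9% and 21.4% of all genes.

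In TA, 3 of 28 collagen genes were lower, beside 7.29% of all 12381 genes tested, and 1 was higher, beside 8.98%. The lower genes were again Col4a1 and Col4a2, with Col9a2, and the higher gene was Col8a1. The median of the 28 collagens was 0.02, the same as for all genes to 2 decimals, and 12 had a mean below 0, beside 46% of all genes. On all 4 arrays, 4 collagens were below 0 and 1 was above 0, beside 15.6% and 19.8% of all genes. Of the 28 collagens tested in both muscles limma called 10 in at least 1, beside 25.7% of the 12200 genes tested in both, and called 2 of these, Col4a1 and Col4a2, in both, beside 6.36%.

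Both counts depend on single arrays. Without gastrocnemius pair 3, or without pair 4, limma called 0 of all 12609 genes, collagens included. At an unadjusted p under 0.05 there were then 2424 genes without pair 3, of which 11 were collagens (6 of them lower), and 2649 genes without pair 4, of which 12 were collagens (9 lower). Without pair 2 of gastrocnemius 11 collagens were lower, beside 4.39% of all genes, and without pair 1 the count was 6, beside 5.72%. Without TA pair 3, 7 collagens were lower, beside 3.63% of all genes, namely Col3a1, Col4a1, Col4a2, Col5a3, Col6a1, Col6a2 and Col6a3, and Col9a1, named after its values were seen, was higher in place of Col8a1, beside 5.94%. Without TA pair 1 or pair 2 limma called 0 collagens lower, in fits that called 68 and 531 genes. At an unadjusted p under 0.05 there were then 2205 genes without pair 1, of which 4 were collagens (3 lower). Without pair 2 there were 2828 genes, of which 4 were collagens (3 lower). SAM, the permutation method that the study used, gave 9 lower and 3 higher in gastrocnemius, beside 8.04% and 17% of all genes, and 6 lower and 1 higher in TA, beside 9.03% and 12%. Beyond the limma calls it had Col3a1, Col5a1 and Col14a1 as lower and Col2a1 as higher in gastrocnemius, and Col6a2, Col6a3 and Col15a1 as lower in TA, with Col2a1 and Col14a1 named after their values were seen. By SAM Col6a2 and Col6a3 were thus lower in both muscles, as Col4a1 and Col4a2 were. A gene-by-gene test without shared variance called 0 collagens in either muscle, where it called 0 of all genes in gastrocnemius and 24 in TA. With the signals processed by the scanner software, Col6a1, Col6a3 and Col26a1 lost their call in gastrocnemius and Col4a1, Col8a1 and Col9a2 in TA.

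**Figure D1:**
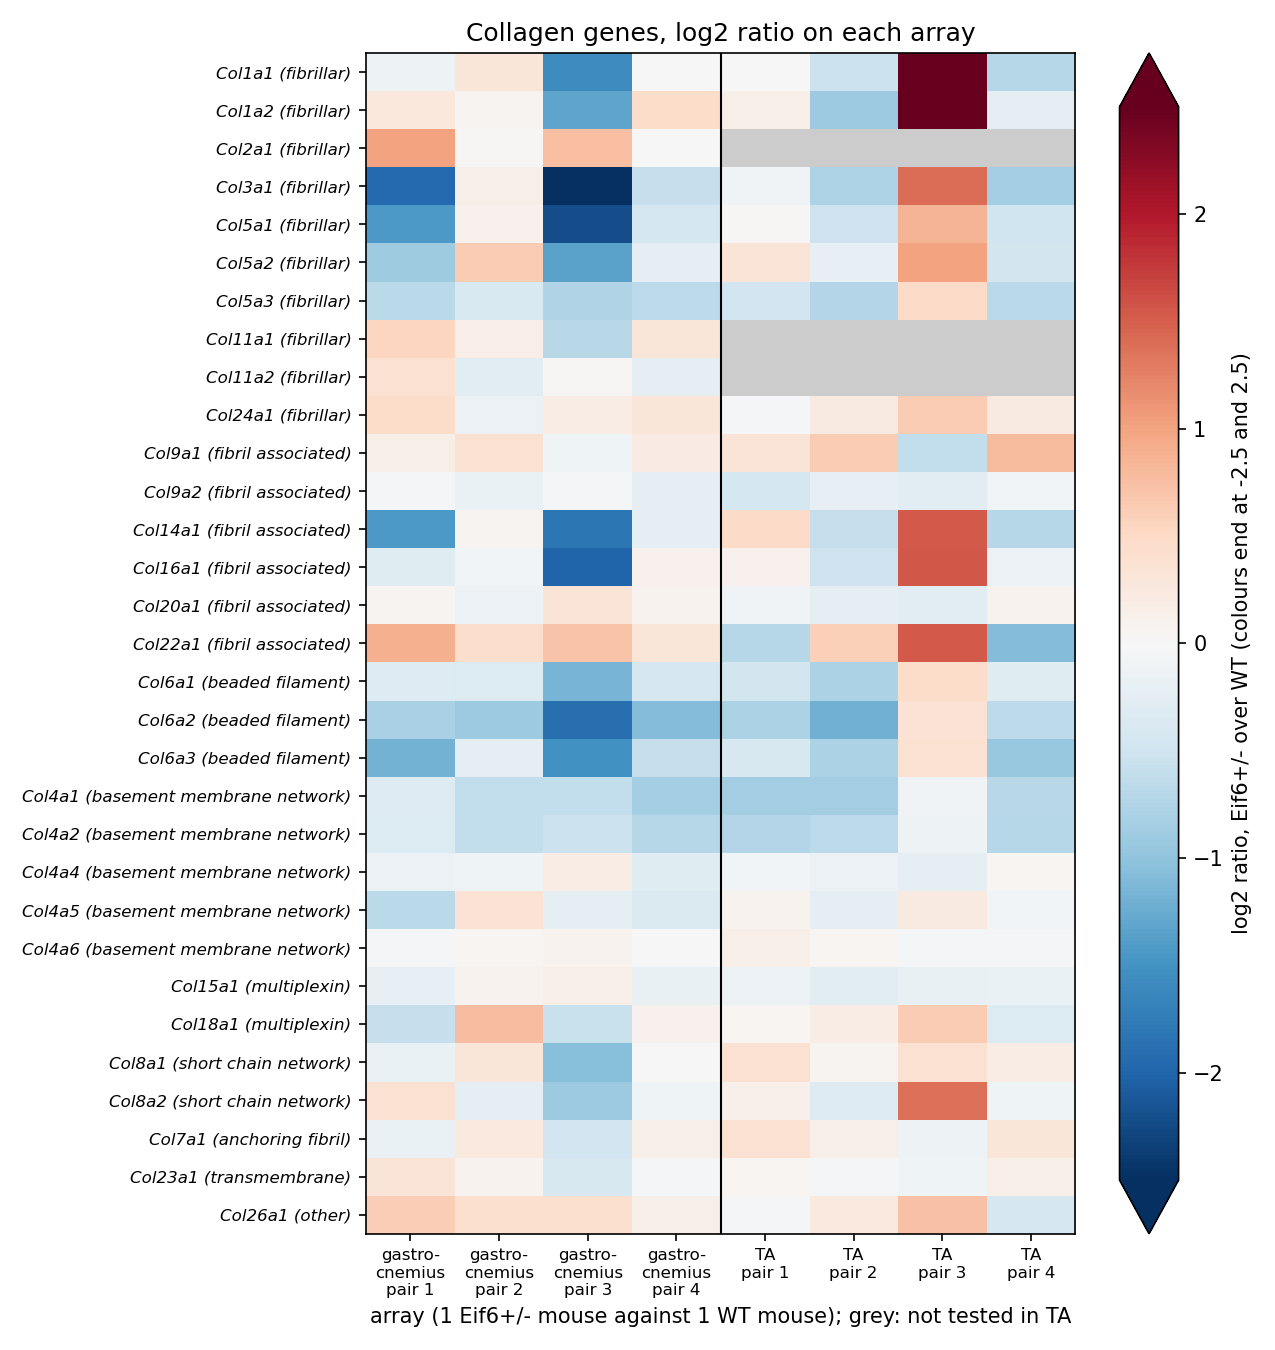
Log2 ratio of Eif6+/- over WT for each of the 31 collagen genes measured in gastrocnemius (vertical axis, with structural class) on each of the 8 arrays (horizontal axis), with red above 0, blue below 0 and grey for 3 genes not tested in TA. Pair 3 stands out in both muscles, with 11 genes below −1 in gastrocnemius and 8 above 1 in TA, while Col4a1 and Col4a2 are below 0 in all 8 columns.

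Pair 3 of each muscle stands apart for collagens, in opposite directions. The pair numbers are those of the labels, and whether pair 3 of gastrocnemius and pair 3 of TA came from the same mice is not stated. In gastrocnemius the median ratio of the 31 collagens was −0.16, 0.06, −0.55 and −0.12 on pairs 1 to 4. In TA the median of the 28 collagens was 0.00, −0.26, 0.42 and −0.27. The array of pair 3 is thus the lowest of its muscle in gastrocnemius and the highest in TA.

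Counts give the same picture. Ratios below −1 were found for 4, 0, 11 and 1 collagens on gastrocnemius pairs 1 to 4, beside 0.936%, 0.412%, 2.11% and 0.254% of all genes. On TA pair 3, 8 collagens had a ratio above 1, beside 0.88% of all genes, and no collagen did so on the other 3 TA arrays. Of the 31 genes 17 had their lowest ratio on gastrocnemius pair 3, and 20 of 28 had their highest on TA pair 3. How often all genes had their lowest or highest ratio on these arrays was not counted. Without pair 3 the gastrocnemius median moved to −0.05, with 16 of 31 genes below 0, and the TA median to −0.19, with 22 of 28 below 0.

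The type IV genes Col4a1 and Col4a2 encode the chains found in nearly all basement membranes, and they were the collagens that limma called lower in both muscles, by between 1.47-fold and 1.55-fold. The Col4a1 ratio was −0.32, −0.62, −0.61 and −0.85 in gastrocnemius and −0.86, −0.88, −0.08 and −0.69 in TA. The Col4a2 ratio was −0.35, −0.61, −0.54 and −0.71 in gastrocnemius and −0.73, −0.66, −0.12 and −0.71 in TA. All 16 values lie below 0, and TA pair 3 is the closest to 0 for both genes.

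In gastrocnemius Col4a1 fell by 0.60 (SD 0.22, n = 4, adjusted p = 0.0319, a 1.52-fold lower signal). Col4a2 fell by 0.55 (SD 0.15, n = 4, adjusted p = 0.0299). In TA the mean was −0.63 for Col4a1 (SD 0.38, n = 4, adjusted p = 0.0352) and −0.56 for Col4a2 (SD 0.29, n = 4, adjusted p = 0.0318), both called. Their adjusted p without gastrocnemius pair 3 was 0.128 and 0.124, although the means without it were −0.60 and −0.56. Over the alternatives fitted with limma, arrays left out included, the adjusted p of Col4a1 ran from 0.0284 to 0.156 in gastrocnemius and from 0.0183 to 0.189 in TA, and the gene-by-gene test gave 0.183 and 0.242.

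The signals behind the ratios show where TA pair 3 differs. For Col4a1 the normalized log2 signal of the 4 WT mice in TA was 11.86, 11.74, 11.10 and 11.72, and that of the Eif6+/- mice 11.00, 10.86, 11.02 and 11.03. The WT mouse of pair 3 was the low one, while the 4 Eif6+/- mice spanned 0.17. For Col4a2 the Eif6+/- mice in TA spanned 0.05 and the WT mice 0.64, with WT pair 3 again lowest. In TA every WT mouse was above every Eif6+/- mouse for Col4a1. In gastrocnemius the groups overlap, since the WT mouse of pair 1 was at 11.28 and the highest Eif6+/- mouse at 11.33.

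The other type IV chains measured were Col4a4, Col4a5 and Col4a6, and none of the 3 was called by limma on all 4 arrays or by SAM, while Col4a5 was lower without gastrocnemius pair 2. Their means lay between −0.23 and 0.03 in gastrocnemius and between −0.10 and 0.03 in TA. A second Col4a4 probe went the other way, with 0.22 and 0.18 against −0.09 and −0.10 for the brightest probe, so no direction can be given for that gene. Col15a1 and Col18a1, whose proteins sit at basement membranes and release antiangiogenic fragments, were not called by limma on all 4 arrays either. The Col15a1 ratio was −0.20, 0.09, 0.15 and −0.18 in gastrocnemius and −0.15, −0.29, −0.18 and −0.16 in TA. In TA all 4 Col15a1 arrays were below 0, with a mean of −0.20 (SD 0.06, n = 4, adjusted p = 0.108). Col15a1 passed in TA with an offset of 0 in the background correction (adjusted p = 0.0823), with no filter on dim probes (adjusted p = 0.0837), with the mean of all probes of a gene (adjusted p = 0.0817) and by SAM. The Col18a1 ratio was −0.58, 0.78, −0.55 and 0.10 in gastrocnemius and 0.06, 0.18, 0.64 and −0.34 in TA, with arrays on both sides of 0 in each muscle.

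Col4a1 and Col4a2 lie head to head on chromosome 8 and are known to share a bidirectional promoter, and their ratios moved together across arrays. Over the 8 arrays their ratios correlated with r = 0.965, and the largest gap between them on an array was 0.22. The start regions of both are shown for that reason, with those of Col1a2 and Col3a1 as members that moved with pair 3. They come from RefSeq (build GRCm38.p6), run 5′ to 3′ on the strand of the gene, and have the letters CCAAT, or their reverse complement ATTGG, in capitals. The windows are chr8:11312777-11313076 (minus strand) for Col4a1, chr8:11312555-11312854 (plus strand) for Col4a2, chr6:4505368-4505667 (plus strand) for Col1a2 and chr1:45311288-45311587 (plus strand) for Col3a1.
Col4a1: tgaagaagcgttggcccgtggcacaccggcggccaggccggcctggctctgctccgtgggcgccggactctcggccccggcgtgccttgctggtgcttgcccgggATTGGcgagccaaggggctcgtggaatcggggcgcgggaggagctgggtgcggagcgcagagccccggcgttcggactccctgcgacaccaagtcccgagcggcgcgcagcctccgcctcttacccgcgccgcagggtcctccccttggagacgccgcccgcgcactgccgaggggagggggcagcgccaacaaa
Col4a2: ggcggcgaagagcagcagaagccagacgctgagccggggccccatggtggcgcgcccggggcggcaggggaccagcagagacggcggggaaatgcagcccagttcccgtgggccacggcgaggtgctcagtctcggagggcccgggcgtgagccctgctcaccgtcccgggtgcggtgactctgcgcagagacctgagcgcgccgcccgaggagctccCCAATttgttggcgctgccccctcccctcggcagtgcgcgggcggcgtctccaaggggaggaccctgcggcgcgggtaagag
Col1a2: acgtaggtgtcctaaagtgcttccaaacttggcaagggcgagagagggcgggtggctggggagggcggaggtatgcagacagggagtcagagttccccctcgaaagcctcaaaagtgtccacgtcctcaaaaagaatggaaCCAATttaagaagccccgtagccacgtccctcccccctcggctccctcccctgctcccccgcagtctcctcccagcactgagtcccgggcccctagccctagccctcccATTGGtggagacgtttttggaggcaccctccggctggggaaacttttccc
Col3a1: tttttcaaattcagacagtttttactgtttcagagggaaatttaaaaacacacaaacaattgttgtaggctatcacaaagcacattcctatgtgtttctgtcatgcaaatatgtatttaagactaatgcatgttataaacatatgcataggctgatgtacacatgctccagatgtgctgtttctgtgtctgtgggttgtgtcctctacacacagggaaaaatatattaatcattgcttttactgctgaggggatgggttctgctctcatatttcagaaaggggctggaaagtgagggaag

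The Col4a1 and Col4a2 windows share 78 bases, read from opposite strands and identical at all 78. CCAAT was found once in each of the Col4a1 and Col4a2 windows, 2 times in Col1a2 and 0 times in Col3a1. Of the 43 collagen genes 35 had an entry, with 38 start regions of 300 bases. CCAAT or ATTGG stood in 34.2% of these and in 37.4% of all 32851 start regions. The GC box letters GGGCGG or CCGCCC stood in 60.5% of collagen regions and 35.7% of all, and TATAAA or TTTATA in 13.2% and 13.6%. Both strands were searched, none of the 3 motifs contains another, and a match only describes the sequence. The set of start regions used here held no entry for Col1a1, Col2a1, Col4a3, Col5a2, Col9a3, Col14a1, Col22a1 or Col26a1.

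Type VI collagen is a heterotrimer whose chains come from Col6a1, Col6a2 and Col6a3, mutated in human congenital muscular dystrophies, and all 3 chains were lower in gastrocnemius of Eif6+/- mice. The Col6a2 ratio was −0.80, −0.91, −1.89 and −1.08 in gastrocnemius and −0.78, −1.20, 0.36 and −0.65 in TA. The Col6a3 ratio was −1.18, −0.23, −1.52 and −0.57 in gastrocnemius and −0.40, −0.79, 0.38 and −0.96 in TA. The Col6a1 ratio was −0.33, −0.34, −1.16 and −0.42 in gastrocnemius and −0.46, −0.80, 0.46 and −0.30 in TA. In gastrocnemius all 12 values are below 0 with pair 3 lowest for each gene, and in TA pair 3 alone is above 0 for each gene.

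In gastrocnemius Col6a2 had the largest fall of the called collagens, by 1.17 (SD 0.49, n = 4, adjusted p = 0.0287, 2.25-fold lower). Col6a3 had a mean of −0.88 (SD 0.58, n = 4, adjusted p = 0.0523) and Col6a1 a mean of −0.56 (SD 0.40, n = 4, adjusted p = 0.0663). Without pair 3 the means were −0.93, −0.66 and −0.37, and the adjusted p 0.121, 0.170 and 0.142. In TA limma called none of the 3 and SAM called Col6a2 and Col6a3 lower, with means of −0.57 for Col6a2 (SD 0.66, adjusted p = 0.121), −0.44 for Col6a3 (SD 0.60, adjusted p = 0.174) and −0.28 for Col6a1 (SD 0.53, adjusted p = 0.326). Without TA pair 3 all 3 passed, with means of −0.88, −0.71 and −0.52 and adjusted p of 0.0347, 0.0367 and 0.0544. Col6a1 and Col6a2 are neighbours on chromosome 10, and their ratios correlated over the 8 arrays with r = 0.977.

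The channel signals of Col6a2 separate the genotypes in gastrocnemius. The WT log2 signal was 10.42, 10.79, 11.85 and 10.52, and the Eif6+/- signal 9.62, 9.88, 9.97 and 9.45. Every WT mouse was above every Eif6+/- mouse, and the WT mouse of pair 3 was 1.28 above the mean of the other 3. In TA the WT signal was 10.01, 10.16, 9.25 and 9.99 and the Eif6+/- signal 9.23, 8.96, 9.60 and 9.34, so that pair 3 had the lowest WT mouse and the highest Eif6+/- mouse.

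**Figure D2:**
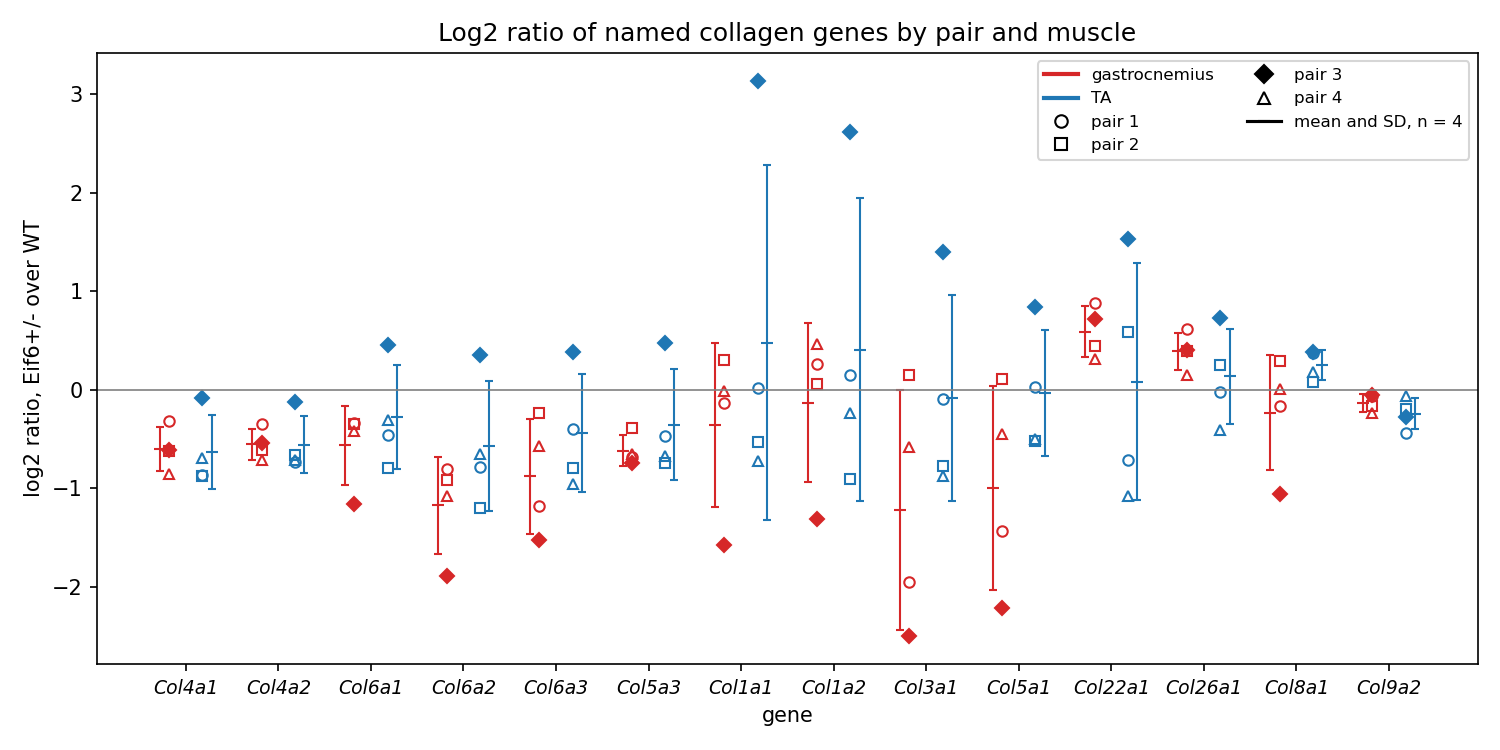
Log2 ratio of Eif6+/- over WT (vertical axis) for 14 named collagen genes (horizontal axis) in gastrocnemius (red) and TA (blue), with a symbol for each pair, pair 3 filled, and the mean with SD of the 4 arrays drawn beside the points. Pair 3 lies at the low end in gastrocnemius and at the high end in TA for Col1a1, Col1a2, Col3a1, Col5a1 and the 3 type VI genes, and the points of Col4a1 and Col4a2 are all below 0.

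The fibrillar collagens I, III and V are the main load-bearing chains of muscle connective tissue, and the ratios of most of them varied widely between arrays. The Col1a1 ratio was −0.13, 0.30, −1.58 and −0.01 in gastrocnemius and 0.02, −0.53, 3.13 and −0.72 in TA. The Col1a2 ratio, for the partner chain of type I, was 0.26, 0.06, −1.31 and 0.46 in gastrocnemius and 0.15, −0.91, 2.62 and −0.23 in TA. In both genes the pair 3 arrays are far from the other 3, low in gastrocnemius and high in TA. Neither type I gene was called, with means of −0.36 (SD 0.83, n = 4, adjusted p = 0.452) and −0.13 (SD 0.81, adjusted p = 0.788) in gastrocnemius, which turned to 0.05 and 0.26 without pair 3. In TA the means were 0.48 (SD 1.80, n = 4, adjusted p = 0.596) for Col1a1 and 0.41 (SD 1.54, adjusted p = 0.595) for Col1a2, and without pair 3 they were −0.41 and −0.33.

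Type III collagen, from Col3a1, forms the fine reticular fibrils between muscle fibres. The Col3a1 ratio was −1.94, 0.15, −2.50 and −0.58 in gastrocnemius and −0.10, −0.77, 1.40 and −0.87 in TA. Here pair 1 of gastrocnemius was low together with pair 3, and pair 2 was above 0. Its mean in gastrocnemius was −1.22, with an SD of 1.22 (n = 4) and an adjusted p of 0.110, and without pair 3 it was −0.79 (adjusted p = 0.325). It passed in gastrocnemius with the ratios as the authors deposited them, with no background correction, without pair 2 and by SAM. In TA the mean was −0.09 (SD 1.05, adjusted p = 0.884), and without TA pair 3 it was −0.58 (adjusted p = 0.0759).

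Type V collagen sets the diameter of type I fibrils. The Col5a1 ratio was −1.43, 0.11, −2.22 and −0.44 in gastrocnemius and 0.03, −0.51, 0.85 and −0.49 in TA. The Col5a2 ratio was −0.89, 0.63, −1.34 and −0.25 in gastrocnemius and 0.32, −0.20, 1.02 and −0.46 in TA. Both follow the order of Col3a1 across gastrocnemius arrays, and neither was called by limma on all 4 arrays, with means of −0.996 (SD 1.03, n = 4, adjusted p = 0.121) and −0.46 (SD 0.86, adjusted p = 0.338) there. Without pair 2 both were lower (adjusted p = 0.0683 and 0.0738), and SAM called Col5a1 lower. Without pair 3 the means were −0.59 and −0.17 (adjusted p = 0.329 and 0.782). In TA the adjusted p was 0.933 for Col5a1 and 0.625 for Col5a2. Col3a1 and Col5a2 are neighbours on chromosome 1, and their ratios correlated over the 8 arrays with r = 0.981, with a gap of up to 1.16 on an array.

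Col5a3 encodes the remaining type V chain and varied less between arrays. The Col5a3 ratio was −0.68, −0.39, −0.74 and −0.65 in gastrocnemius and −0.47, −0.74, 0.47 and −0.68 in TA. It was below 0 on 7 of 8 arrays, with TA pair 3 the exception. In gastrocnemius it fell by 0.62 (SD 0.16, n = 4, adjusted p = 0.0287, 1.53-fold lower), and without pair 3 the adjusted p was 0.121 at a mean of −0.57. In TA the mean was −0.35 (SD 0.56, adjusted p = 0.238), and without pair 3 it was −0.63 (adjusted p = 0.0347).

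The signals of the fibrillar genes show which mouse of pair 3 differs. In gastrocnemius the WT log2 signal of Col1a1 was 14.91, 13.98, 15.94 and 14.87, and the Eif6+/- signal 14.78, 14.28, 14.36 and 14.86. The WT mouse of pair 3 was the highest WT mouse, and its Eif6+/- partner lay within the range of the other Eif6+/- mice. In TA the WT signal was 13.48, 14.06, 12.58 and 14.19 and the Eif6+/- signal 13.49, 13.53, 15.71 and 13.48. There the Eif6+/- mouse of pair 3 was 2.21 above the mean of the other 3, and its WT partner differed by −1.33 from the mean of the other 3 WT mice.

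Col3a1 gave the same order for pair 3. In gastrocnemius its WT signal was 14.43, 13.19, 15.52 and 13.16 and its Eif6+/- signal 12.48, 13.33, 13.02 and 12.58, so that WT pairs 1 and 3 exceed all 4 Eif6+/- mice and WT pairs 2 and 4 lie among them. In TA the WT signal was 13.20, 13.34, 12.72 and 13.78 and the Eif6+/- signal 13.10, 12.57, 14.12 and 12.91, and the groups overlap. The Cy3 channel of gastrocnemius pair 3 also had the largest share of probes well above background of the 8 Cy3 channels, 46%. The Cy5 channel of TA pair 3, that of the Eif6+/- mouse, had the largest share of the 8 Cy5 channels, 48.6%. The part of these array differences in the collagen ratios was not tested.

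**Figure D3:**
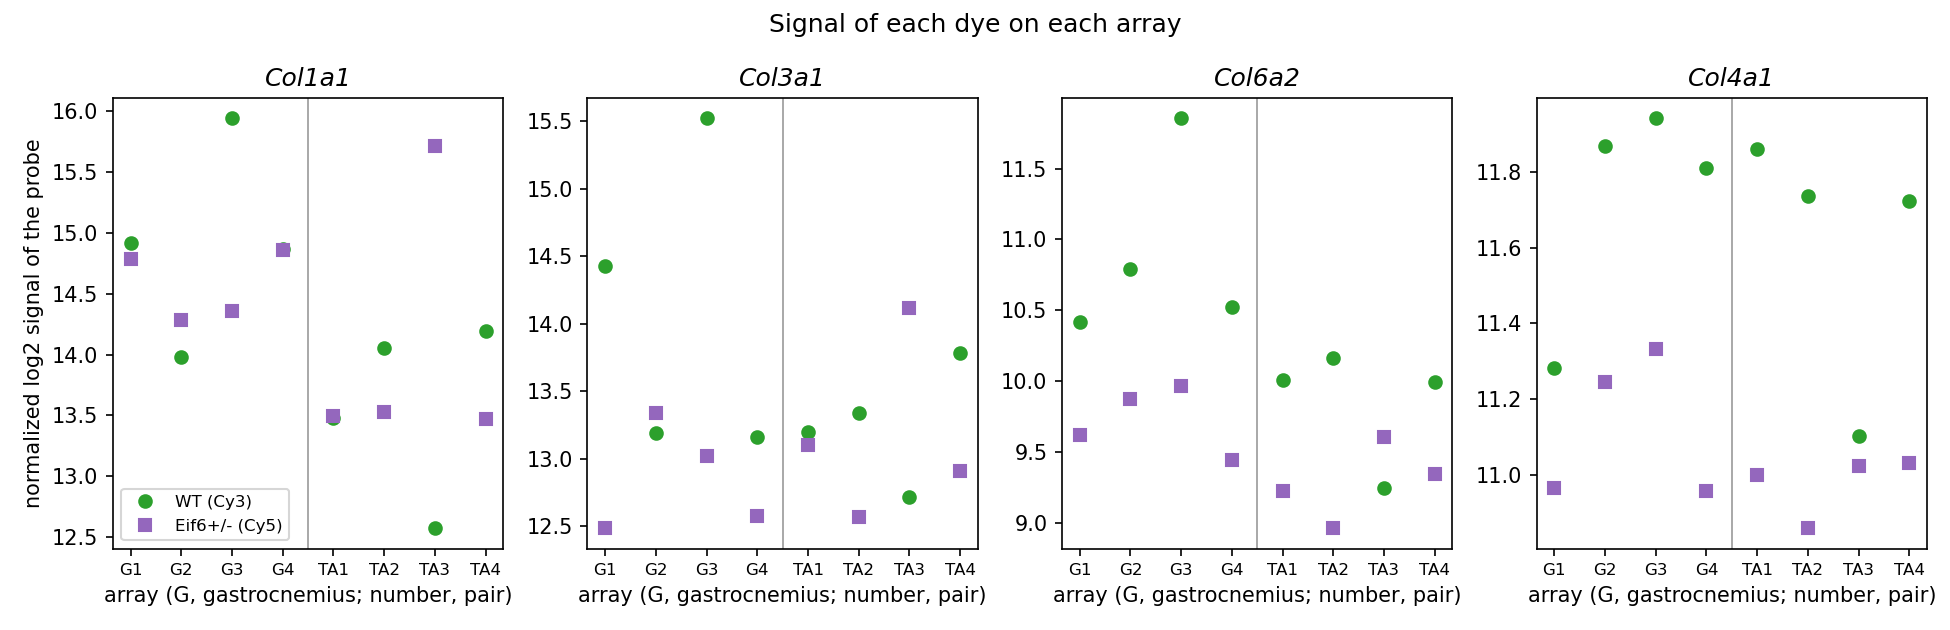
Normalized log2 signal (vertical axis, not starting at 0) of the probe for Col1a1, Col3a1, Col6a2 and Col4a1 in the WT mouse (green circles) and the Eif6+/- mouse (purple squares) of each array (horizontal axis, 4 gastrocnemius and 4 TA arrays). In gastrocnemius pair 3 the WT mouse is the highest WT mouse for all 4 genes, and in TA pair 3 the WT mouse is the lowest and, for Col1a1, Col3a1 and Col6a2, the Eif6+/- mouse the highest of its group.

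Smaller collagens gave the calls that remain. Col22a1, a collagen of the muscle and tendon junction, had a ratio of 0.88, 0.45, 0.71 and 0.31 in gastrocnemius and −0.71, 0.59, 1.53 and −1.08 in TA. It was above 0 on all 4 gastrocnemius arrays and on 2 of 4 in TA, with a mean of 0.59 (SD 0.26, n = 4, adjusted p = 0.0360) and of 0.08 (SD 1.20, adjusted p = 0.903). Col26a1 had a ratio of 0.61, 0.39, 0.41 and 0.15 in gastrocnemius and −0.03, 0.25, 0.73 and −0.41 in TA. It rose by 0.39 in gastrocnemius (SD 0.19, n = 4, adjusted p = 0.0542), and the call was lost without any one of the 4 arrays. Without pair 3 the adjusted p was 0.144 for Col22a1 and 0.182 for Col26a1.

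In TA the remaining calls were Col8a1 and Col9a2. Both were dim there, with a mean log2 signal in WT and Eif6+/- mice of 6.65 and 6.905 for Col8a1 and of 6.89 and 6.64 for Col9a2. Col4a1 was at 11.61 and 10.98 in TA, and Col25a1, which did not pass the filter on dim probes, at 6.12 in each genotype. Col8a1, a short chain network collagen made by vessel wall and endothelium, had a ratio of 0.38, 0.08, 0.38 and 0.18 in TA, all above 0, and a mean of 0.25 (SD 0.15, n = 4, adjusted p = 0.0868). In gastrocnemius the Col8a1 ratio was −0.17, 0.29, −1.06 and 0.01, on both sides of 0. Col9a2, better known from cartilage, had a ratio of −0.43, −0.20, −0.28 and −0.06 in TA, all below 0, and a mean of −0.24 (SD 0.16, n = 4, adjusted p = 0.0983). In gastrocnemius its ratio was −0.06, −0.17, −0.05 and −0.24, with an adjusted p of 0.309. Col8a1 lost its call without any one TA array, its adjusted p in limma running from 0.0717 to 0.303 over the alternatives, and Col9a2 lost its call without pair 1, 2 or 3, with loess alone, with the authors' ratios and with the mean of all probes of a gene, where Col15a1 was lower in its place, over a range from 0.0739 to 0.338 in limma. The means of Col8a1 and Col9a2 varied with the processing, and were 0.51 and −0.45 with an offset of 0 in the background correction, both still called, and 0.68 and −0.51 with the signals processed by the scanner software.

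The 11 members not yet described in gastrocnemius had means from −0.85 (Col14a1) to 0.45 (Col2a1), and the 8 of these tested in TA had means from −0.13 (Col20a1) to 0.29 (Col9a1), none of them called by limma on all 4 arrays. SAM called Col14a1 lower and Col2a1 higher in gastrocnemius, limma called Col14a1 lower there without pair 2, and Col23a1 was higher in TA with the signals processed by the scanner software. These genes, like those in the next sentence, are named after their values were seen. Besides Col4a4, kept probes of a gene differed in the sign of their mean for Col20a1 in gastrocnemius (0.08 and −0.11), for Col14a1 in TA (0.19 and −0.02) and for Col23a1 in TA (0.01 and −0.24).

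The difference of the genotype ratio between muscles was tested as gastrocnemius minus TA, a contrast in which the dye effect of a probe cancels. Of the 28 collagens measured in both muscles, limma called 0, beside 0% of all 12200 genes. At an unadjusted p under 0.05 there were 0 collagens and 995 genes, or 8.16% of all. The median difference of the collagens was −0.24, with 20 of 28 below 0, against 0.01 for all genes with 47.8% below 0. Without pair 3 of both muscles, an alternative chosen after seeing the data, the median difference was 0.08, 11 of 28 were below 0, and 5 collagens were among 411 genes at an unadjusted p under 0.05, with 0 called.

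For the fibrillar and type VI genes this difference has wide limits. For Col3a1 it was −1.14 (95% interval −2.47 to 0.20, adjusted p = 0.664) and for Col1a1 −0.83 (95% interval −2.48 to 0.81, adjusted p = 0.792). For Col6a2 it was −0.60 (95% interval −1.30 to 0.10, adjusted p = 0.663). For Col4a1 the difference was 0.03 (95% interval −0.37 to 0.43) and for Col4a2 0.00 (95% interval −0.32 to 0.33). None of these intervals excludes 0, so the calls made in gastrocnemius alone are not shown to differ from TA.

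The muscles themselves were compared within each genotype and dye. In WT mice 8 of 28 collagens had a higher signal in gastrocnemius than in TA, beside 7.90% of all genes, and 1 was lower, beside 13.2%. In Eif6+/- mice 5 were higher, beside 6.67%, and 0 were lower by limma, beside 10.2%. At an unadjusted p under 0.05, 1 was lower there, a threshold at which all genes were not counted for this comparison. Of these calls 4 genes were shared, 4 of the 9 in WT and 4 of the 5 in Eif6+/- mice, beside 41.9% and 52.5% of the genes called in each. The median of the collagens was 0.53 in WT mice, against −0.03 for all genes, and 0.15 in Eif6+/- mice, against −0.03. Col1a2, Col6a1 and Col22a1 can serve as examples, with differences in WT of 1.54, 1.02 and 1.07 (adjusted p = 0.0284, 0.0307 and 0.00914, 4 mice in each muscle), and in Eif6+/- mice of 1.00, 0.74 and 1.58 (adjusted p = 0.115, 0.0163 and 0.0387).

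The genes called in WT muscles were Col1a1, Col1a2, Col4a5, Col6a1, Col6a2, Col8a2, Col16a1 and Col22a1 as higher in gastrocnemius and Col20a1 as lower, and those called in Eif6+/- muscles were Col6a1, Col6a2, Col16a1, Col22a1 and Col26a1. Col4a5, Col8a2, Col16a1 and Col20a1 are named after their values were seen. With pair number as a block, Col1a1 and Col6a2 lost their call in WT muscles. Without pair 3 of both muscles, an alternative also chosen after seeing the data, the count in WT was 7 higher and 1 lower, beside 2.98% and 3.67% of all genes. In Eif6+/- mice it was 10 higher and 2 lower, beside 8.87% and 11.2%. Leaving out TA pair 3 alone gave 12 in Eif6+/- mice, beside 18.7% of all genes called in either direction, and leaving out any other array gave 2 or 3, beside between 7.8% and 16.9%. The medians without pair 3 of both muscles were 0.22 in WT and 0.21 in Eif6+/- mice.

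Across members the ratios were only loosely tied. Over the 378 pairs of the 28 collagens the median correlation across 8 arrays was 0.199, so the neighbours Col3a1 and Col5a2, Col6a1 and Col6a2, and Col4a1 and Col4a2 are well above the middle. The X-linked neighbours Col4a5 and Col4a6 gave r = 0.259. These arrays share a slide, a dye layout and the same pair 3 excursions, so r describes them only. The genes whose ratios best followed the mean of the collagens over the 8 arrays were the microfibril gene Mfap2 (r = 0.989), Tmem45a (r = 0.987), the endoplasmic reticulum protein gene Ckap4 (r = 0.982), the matrilin gene Matn2 (r = 0.981) and the hyaluronan receptor gene Cd44 (r = 0.980). The Mfap2 ratio was −0.54, −0.01, −1.19 and −0.27 in gastrocnemius and 0.05, −0.33, 1.25 and −0.55 in TA. Its low value on pair 3 of gastrocnemius and high value on pair 3 of TA follow from its choice by that correlation.

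Genes that make, mature and remove collagen were read from lists that were chosen with earlier results of these data known. Beside the counts of every list below, limma called 5.53% of all genes lower and 9.85% higher in gastrocnemius, and 7.29% lower and 8.98% higher in TA. At an unadjusted p under 0.05 there were 3658 of 12609 genes in gastrocnemius and 3599 of 12381 in TA, in either direction. By SAM 8.04% of all genes were lower and 17% higher in gastrocnemius, and 9.03% and 12% in TA. Of 22 hydroxylases, glycosyltransferases, chaperones and secretion factors measured in gastrocnemius, 1 rose and 1 fell by limma (2 higher and 8 lower at an unadjusted p under 0.05, and 2 and 5 by SAM), and of 21 in TA 2 fell and 0 rose by limma (1 rose at an unadjusted p under 0.05, and 0 by SAM). Colgalt1, which adds galactose to hydroxylysine, fell by 0.45 in gastrocnemius (adjusted p = 0.0521) and the prolyl hydroxylase gene P4ha2 rose by 0.28 (adjusted p = 0.0672). The lysyl hydroxylase genes Plod1 and Plod3 fell in TA, with means of −0.34 (adjusted p = 0.0349) and −0.29 (adjusted p = 0.0685). Of the procollagen proteinases and cross-linking oxidases, 2 of 11 fell in gastrocnemius, and in TA 0 of 10 were called by limma, at an unadjusted p under 0.05 or by SAM. Those 2 were Loxl1, a lysyl oxidase (mean −0.78, adjusted p = 0.0394), and Pcolce, an enhancer of C-propeptide removal (mean −0.40, adjusted p = 0.0926).

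Removal and sensing of collagen were read in the same way. Of 11 matrix proteinases, inhibitors and uptake factors measured in each muscle, 2 fell in gastrocnemius and 1 in TA. Mmp2 (mean −0.68, adjusted p = 0.0767) and its membrane activator Mmp14 (mean −1.02, adjusted p = 0.0989) fell in gastrocnemius, and Mmp15 (mean −0.34, adjusted p = 0.0427) in TA. Of 6 collagen receptors 2 fell in gastrocnemius, Ddr2 (mean −0.34, adjusted p = 0.0791) and Itgb1 (mean −0.31, adjusted p = 0.0927), and 2 rose in TA, Ddr1 (mean 0.38, adjusted p = 0.0579) and Lair1 (mean 0.28, adjusted p = 0.0479).

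Partners of the collagen fibril and the TGF-beta pathway complete the surroundings. Of 15 fibril partners 3 fell in gastrocnemius, namely Tnxb (mean −0.35, adjusted p = 0.0527), Dpt (mean −0.50, adjusted p = 0.0599) and the proteoglycan gene Bgn (mean −0.93, adjusted p = 0.0871), and in TA 0 were called by limma or at an unadjusted p under 0.05, and 1 was higher by SAM. The median of the partners was −0.25, 0.01, −0.74 and 0.06 on gastrocnemius pairs 1 to 4 and 0.54, −0.67, 1.33 and −0.19 in TA, so that TA pair 3 was high here as well. Of 13 TGF-beta ligands, receptors and effectors, Tgfb1, which drives collagen transcription, fell in gastrocnemius (mean −0.46, adjusted p = 0.0447), where Smad7 and Smad4 rose by 0.43 and 0.29 (adjusted p = 0.0614 and 0.0857). In TA Tgfbr1, Smad4 and Ccn2 rose by 0.27, 0.32 and 0.68 (adjusted p = 0.0480, 0.0588 and 0.0773). Over these lists and the cell type markers that follow, each mean is over 4 arrays. The lists hold 27 genes called in gastrocnemius, of which 19 were called without pair 1, 20 without pair 2 and 0 without pair 3 or pair 4, where limma called no gene at all. Of 27 genes called in TA, 2 were called without pair 1, 13 without pair 2, 16 without pair 3 and 20 without pair 4.

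Markers of the cells that make collagen were followed in the same arrays. Of 12 fibroblast markers 2 fell in gastrocnemius, Dpt and Thy1 (mean −0.35, adjusted p = 0.0708), and in TA 0 were called by limma, at an unadjusted p under 0.05 or by SAM. Dpt and Lum stand on the list of fibril partners too. Their median was −0.35, 0.04, −0.56 and −0.22 in gastrocnemius and 0.48, −0.45, 0.29 and −0.07 in TA. The log2 ratio of their summed signal was −0.05, 0.17, −0.45 and −0.24 in gastrocnemius and 0.69, −0.71, 0.40 and 0.13 in TA, with Gsn as the brightest gene. Gastrocnemius pair 3 is the lowest array for these markers as for the fibrillar collagens, while in TA it is pair 1 that is highest.

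Tenocyte markers moved most with TA pair 3. Of 8 measured in gastrocnemius and 7 in TA (Mkx did not pass the filter there) 0 were called by limma. At an unadjusted p under 0.05, 2 were higher in gastrocnemius and 0 in TA, and SAM gave 2 and 1. Of all genes, 3658 of 12609 in gastrocnemius and 3599 of 12381 in TA had an unadjusted p under 0.05 in either direction. Their median was 0.62, 0.05, −0.43 and 0.14 in gastrocnemius and 0.43, −0.81, 1.70 and −0.26 in TA, and their summed signal gave 0.32, −0.11, −0.59 and 0.31 and then 0.39, −0.46, 1.67 and −0.35, with Thbs4 brightest. TA pair 3 and gastrocnemius pair 3 are thus the highest and lowest arrays of their muscle for tendon markers as for type I collagen. Fmod, Comp, Kera and Thbs4 stand on the list of fibril partners too. The part of tendon or fascia in the collagen ratios of pair 3 was not tested.

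Vessel markers were lower on every array by their median. Of 8 endothelial markers 2 fell in gastrocnemius, beside 5.53% of all genes, and 4 in TA, beside 7.29%, with Cldn5 (means −0.63 and −0.67, adjusted p = 0.0399 and 0.0244) and Tie1 (means −0.54 and −0.49, adjusted p = 0.0506 and 0.0291) called in both muscles and Pecam1 and Emcn in TA (means −0.32 and −0.28, adjusted p = 0.0650 and 0.0695). Of 8 mural cell markers 2 fell in gastrocnemius and 4 in TA, with Acta2 in both (means −0.46 and −0.52, adjusted p = 0.0677 and 0.0280), Pdgfrb in gastrocnemius (mean −0.43, adjusted p = 0.0375) and Cspg4, Tagln and Myh11 in TA (means −0.51, −0.56 and −0.55, adjusted p = 0.0298, 0.0345 and 0.0470). No endothelial or mural marker was higher at an unadjusted p under 0.05 or by SAM in either muscle, a count of 0 in each.

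The endothelial median was −0.06, −0.39, −0.17 and −0.22 in gastrocnemius and −0.26, −0.22, −0.18 and −0.30 in TA. The mural median was −0.24, −0.30, −0.28 and −0.22 in gastrocnemius and −0.55, −0.43, −0.46 and −0.11 in TA. The summed endothelial signal, brightest in Flt1, gave −0.13, −0.29, 0.12 and −0.14 in gastrocnemius and −0.26, −0.10, −0.14 and −0.19 in TA, above 0 on gastrocnemius pair 3. The summed mural signal, brightest in Tagln, gave −0.20, −0.14, −0.43 and −0.22 in gastrocnemius and −0.46, −0.47, −0.42 and −0.11 in TA. Col4a1 and Col4a2, lower on all 8 arrays, thus lay beside vessel markers that were lower by their median on all 8, and the part of vessel cells in the type IV result was not tested.

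The remaining cell types gave calls in either direction. Of 7 macrophage markers in gastrocnemius Cd74 fell by limma (mean −1.10, adjusted p = 0.0450). In TA 0 of 8 were called by limma, with 1 higher and 1 lower at an unadjusted p under 0.05 and by SAM. Of all genes in TA, 3599 of 12381 had an unadjusted p under 0.05 in either direction. There was no probe for Cd68, and Cd163 in both muscles and Ptprc in gastrocnemius did not pass the filter on dim probes. The macrophage median was −1.22, 0.27, −1.14 and −0.03 in gastrocnemius and 0.20, −0.17, 0.17 and −0.12 in TA, low on gastrocnemius pairs 1 and 3 as Col3a1 and Col5a1 were. Their summed signal gave −0.71, −0.12, −1.15 and −0.11 in gastrocnemius and 0.13, −0.36, 0.12 and −0.03 in TA, with Csf1r and Itgam as the brightest genes of the 2 muscles. Of 7 nerve markers 0 were called in gastrocnemius by limma, at an unadjusted p under 0.05 or by SAM, and 3 fell in TA, Prx, Mbp and S100b, with means of −0.44, −0.21 and −0.35 (adjusted p = 0.0267, 0.0875 and 0.0985). The summed nerve signal, brightest in Pmp22, gave −0.29, −0.19, −0.02 and 0.23 in gastrocnemius and −0.14, −0.52, −0.10 and −0.46 in TA.

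Of 7 adipocyte markers, Cfd and Adipoq fell in gastrocnemius (means −0.89 and −0.64, adjusted p = 0.0745 and 0.0998) and Cidec, Retn and Plin1 rose in TA (means 0.60, 0.65 and 0.51, adjusted p = 0.0709, 0.0733 and 0.0791), with Lep not passing the filter on dim probes. Their median was −0.13, 0.00, −0.25 and −1.01 in gastrocnemius and 0.49, −0.14, 1.30 and 0.42 in TA. Their summed signal gave 0.00, −0.12, −0.14 and −0.99 in gastrocnemius, brightest in Cfd, and −0.03, −0.06, 0.62 and −0.36 in TA, brightest in Fabp4. TA pair 3 was therefore the highest TA array for fat markers as it was for tendon markers and fibrillar collagens.

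Of 15 muscle markers 1 rose and 4 fell in gastrocnemius, and 2 rose and 3 fell in TA. The fast myosin gene Myh1 rose in gastrocnemius (mean 0.96, adjusted p = 0.0521), where Des, Actn3, Ckm and Atp2a1 fell (means −0.68, −0.36, −0.37 and −0.72, adjusted p = 0.0512, 0.0571, 0.0580 and 0.0749). In TA Myh4 and Tnnc2 rose (means 0.80 and 0.57, adjusted p = 0.0119 and 0.0263) and Des, Atp2a1 and Mb fell (means −0.49, −0.60 and −0.54, adjusted p = 0.0329, 0.0491 and 0.0656). The summed muscle signal stayed within 0.17 of 0 on every array, at 0.14, 0.02, 0.16 and 0.01 in gastrocnemius, brightest in Pvalb, and 0.17, −0.12, −0.11 and 0.06 in TA, brightest in Acta1.

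**Figure D4:**
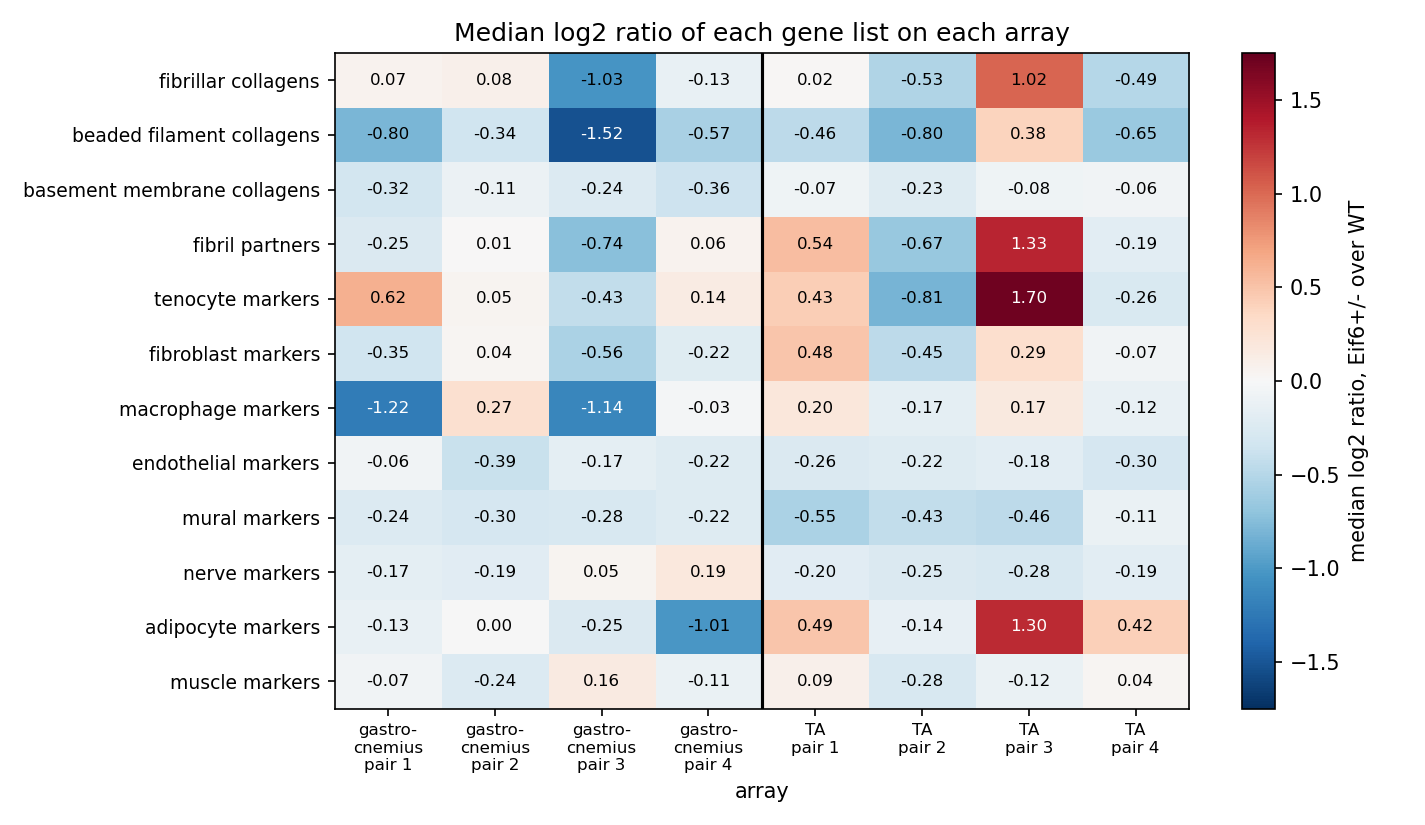
Median log2 ratio of Eif6+/- over WT on each of the 8 arrays (horizontal axis) for 3 collagen classes and 9 lists of matrix partners and cell type markers (vertical axis), with the value written in each cell. TA pair 3 is high for fibrillar collagens (1.02), fibril partners (1.33), tenocyte markers (1.70) and adipocyte markers (1.30), and the endothelial and mural lists are below 0 in all 8 columns.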

How the data were processed

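The deposited files hold, per the file headers, scanner intensity for both dyes and the log2 ratio that the authors computed, with medians of 0.00257, 0.000831, −0.00441 and 0.00375 in gastrocnemius and 0.00138, −0.000366, 0.00288 and 0.00212 in TA. Intensity was background corrected (normexp, offset 50), loess normalized within arrays and quantile normalized across the 16 channels in limma 3.58.1 (R 4.3.3, plotted with matplotlib 3.10.9). A probe was kept where either dye was well above background and unflagged on all 4 arrays of the muscle. A gene took its probe of highest mean signal, and ratios or channels were fitted with limma, tested on simulated data, at an adjusted p under 0.1. Named were Eif6, the called collagens, 13 preset collagens, up to 5 called members of each list and muscle, and 5 correlates. Members and lists were chosen with earlier results of these data known. Alternatives changed the background correction, normalization, filter, test, threshold, probe choice, each array and the block of equal pair numbers.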

Additional observations from a re-analysis of the deposited data

Results flagged for a closer look

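In 144 groups of 4 arrays, 10 had an array far from the other 3 by Dixon's ratio at its critical value for 95%, where chance gives about 1 in 20. In gastrocnemius pair 3 was low for Col6a1 (−1.16, others −0.42 to −0.33), Loxl1 (−1.39, others −0.63 to −0.52), Tnxb (−0.56, others −0.31 to −0.27) and Acta2 (−0.93, others −0.32 to −0.30). Pair 1 was high for Pecam1 (0.13, others −0.42 to −0.33), and pair 2 was high for Tagln (0.21, others −0.38 to −0.33).

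In TA pair 3 was high for Col4a2 (−0.12, others −0.73 to −0.66) and for Mmp14 (0.51, others −0.33 to −0.26). Pair 1 was high for Prx (−0.20, others −0.55 to −0.50), and pair 4 was high for Ckm (0.41, others −0.72 to −0.60). The pair 3 arrays make up 6 of the 10 values.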

How the results depend on the processing

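For Eif6 and the collagens called in the original setting, no mean ratio changed direction in an alternative in the muscle of the call. The called genes of the other lists are not covered by this. In the muscle where they were not called, some of these collagens did change sign. In TA Col22a1 ran from −0.40 to 0.47 and Col26a1 from −0.06 to 0.32, and in gastrocnemius Col8a1 ran from −0.41 to 0.04. The median of collagens ran from −0.22 to −0.05 in gastrocnemius and from −0.19 to 0.12 in TA when an array was left out, and with an offset of 0 in the background correction it was −0.25 in gastrocnemius, against −0.13. The count of collagens lower in gastrocnemius (6) ran from 0 to 11 when an array was left out, and that of those higher (2) from 0 to 1. In TA the lower count (3) ran from 0 to 7 and the higher count (1) from 0 to 1. A gene-by-gene test without shared variance gave 0 for all 4 counts. At a threshold of 0.05 the lower count was 4 in gastrocnemius (Col4a1, Col4a2, Col5a3 and Col6a2), beside 1.53% of all genes. Col6a1 and Col6a3 lost their call. In TA the lower count was 2 (Col4a1 and Col4a2), beside 2.72%. The higher count at 0.05 was 1 in gastrocnemius and 0 in TA, beside 3.43% and 4.04%. Between muscles it gave 6 higher and 1 lower in WT mice, beside 4.7% and 7.82%, and 2 higher in Eif6+/- mice, beside 3.38%. The signals processed by the scanner software gave 1 higher in gastrocnemius and 1 lower in TA. SAM gave 6 lower in TA, and no filter on dim probes gave 2 higher in TA. The count between Eif6+/- muscles (5) ran from 2 to 12 without an array and was 12 without pair 3 of both muscles, an alternative chosen after seeing the data. The causes were not tested, beyond fewer arrays where some were left out. The difference between muscles stayed at 0 collagens by limma. Whether equal pair numbers are the same mice is not stated. Deviations from the mean of a muscle correlated between arrays of pairs 1 to 4 by −0.145, 0.0186, −0.356 and 0.0896 for ratios, by −0.376, 0.114, −0.0710 and 0.192 for WT signals and by 0.187, 0.0153, 0.0226 and 0.153 for Eif6+/- signals. The best match had the same number for WT pair 4 and for Eif6+/- pairs 1 and 4, and another number for the rest. With pair number as a block the counts were 0 for the difference, 8 for WT and 6 for Eif6+/- muscles, beside 0%, 15.2% and 18.4% of all genes. The block lost Col1a1 and Col6a2 and gained Col18a1 in WT muscles, and gained Col9a1 in Eif6+/- muscles. The called and preset collagens were compared between the original setting and each limma alternative in both muscles. In 372 of these comparisons the call and the sign were the same, although the mean itself could differ. Another 13 passed the threshold only in the alternative, 38 only in the original setting, and 19, called in neither, changed sign. Eif6, the list genes, the correlates, SAM, the gene-by-gene test and the threshold of 0.05 are not in these counts. Genes with signal near background limit the members that could be measured.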
